A study of Mus musculus with 8 samples.

Results

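Liver RNA came from ethanol-fed mice labelled as hepatocyte knockouts of Ripk1 or as controls. In it, a set of 9 transcription factors that hold mouse hepatocytes in their adult state was followed. The genes are Hnf4a, Foxa1, Foxa2, Foxa3, Cebpa, Onecut1, Prox1, Nr5a2 and Rxra. They were chosen by symbol, and all 9 were found among the 55335 genes of the count table and among the 15234 genes with enough counts to test. The libraries came from whole liver of 8 female mice, all on the NIAAA chronic-plus-binge ethanol model, in which ethanol in a liquid diet is followed by a gavage. There were 4 mice (S28, S34, S37 and S39) labelled Ripk1-hepKO, a knockout of Ripk1 restricted to hepatocytes, and 4 mice (S29, S32, S40 and S41) labelled Ripk1-Con, the control for it. Each library was an independent animal. The sources used here do not give the Cre driver, the age or the strain, and no mice off ethanol entered the analysis, so every comparison is between genotypes under ethanol.

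The identity of hepatocytes rests on a small set of factors that bind each other's genes and the genes of secreted proteins, urea synthesis, bile acids and lipids. HNF4A is a nuclear receptor at the centre of that network, the FOXA proteins are pioneer factors that open chromatin, and C/EBP-alpha activates metabolic genes and restrains proliferation. ONECUT1 (HNF6) and PROX1 act in liver development and stay on in the adult cell, NR5A2 (LRH-1) drives bile acid and phospholipid genes, and RXRA is the shared partner of the receptors for bile acids, oxysterols, fatty acids and xenobiotics.

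The start regions of Hnf4a and Foxa2 are shown because they were the ones that held a letter match for ONECUT1, itself one of the 9 factors; they were chosen after the matches were seen. RefSeq start windows on GRCm38.p6 (250 bases before to 50 after each start) were found for all 9 genes, 15 windows in all, and were searched on both strands for ATCAATA, a form of the ONECUT site. The letters occurred in 2 of the 15 windows, against 2.05% of 32851 windows of the same length. They stood 59 bases before the first of 2 starts of Hnf4a, on the gene's strand. For Foxa2 they stood 214 bases before the first of 3 starts, on the opposite strand. The window of the second Hnf4a start (chr2:163546905-163547204) and the other Foxa2 windows held no match. Counts were per gene, so which start these livers used was not examined. The Hnf4a stretch below has 201 bases, as it was cut before the GENCODE gene start at 163506808. That start lies upstream of the RefSeq start from which the 59 bases are counted. The stretches upstream of these starts read as follows, 5′ to 3′ on the gene's strand, with the match in capitals, from chr2:163506607-163506807 (plus strand) and chr2:148046970-148047219 (minus strand).
Hnf4a: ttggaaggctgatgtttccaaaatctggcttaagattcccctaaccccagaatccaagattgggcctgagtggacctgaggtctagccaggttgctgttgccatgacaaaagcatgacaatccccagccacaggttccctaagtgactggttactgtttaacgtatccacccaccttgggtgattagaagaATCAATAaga
Foxa2: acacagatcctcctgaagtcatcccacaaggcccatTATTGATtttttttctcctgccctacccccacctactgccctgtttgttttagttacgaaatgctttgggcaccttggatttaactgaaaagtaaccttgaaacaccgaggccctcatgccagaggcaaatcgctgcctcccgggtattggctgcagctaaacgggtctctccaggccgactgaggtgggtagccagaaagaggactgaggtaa
This was 1 of 11 motifs searched in the same way. The FOXA forms TGTTTAC and TGTTTGC each occurred in 1 of the 15 windows, in Foxa1 and Prox1, against 3.65% and 5.07% of all windows. The HNF4 form CAAAGTCCA (0.475% of all windows), the direct repeat with 1 spacer base bound by HNF4 and RXR dimers (0.0396%), the C/EBP form TTGCGCAA (0.183%), the NR5A2 form TCAAGGTCA (0.423%), its shorter core CAAGGTC (3.96%), which overlaps it, and a second ONECUT form, ATCGAT (0.925%), occurred in 0 of the 15. The general promoter letters TATAAA and CCAAT occurred in 5 and 7 of the 15, against 13.6% and 37.4% of all windows. A match is a stretch of letters, not a bound site.

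Total counts ran from 28038390 (S40) to 67328158 (S32). All 14 hepatocyte markers of the list were tested and summed to between 120879 and 170577 CPM (read counts relative to the TMM-adjusted size of each library). Ripk1 itself did not separate the groups: it stood at 38.1, 35.8, 33.1 and 23.1 CPM in the knockouts S28, S34, S37 and S39 and at 34.3, 53.6, 27.8 and 34.2 CPM in the controls S29, S32, S40 and S41 (edgeR adjusted p = 0.866). Counts were per gene and from whole liver, so single exons and single cell types could not be examined. Why Ripk1 did not differ was not tested, and directions below rest on the labels. S28 stood apart, with a mean Spearman correlation to the other libraries of 0.954 against 0.974 to 0.980. Markers of pancreatic acinar cells, where Nr5a2, Foxa2 and Onecut1 are also known to be expressed, were at 0 in every library for 7 of 11 genes, including Ptf1a and Cpa1, and the sum of the list lay between 2.52 and 4.77 CPM, nearly all of it Cela1. Of the adipocyte markers, where Cebpa is also expressed, Lep, Plin1 and Cfd were at 0 in every library and Adipoq and Retn were at or below 0.171 CPM. Cidec, a lipid droplet gene that fatty liver also expresses, stood at 108 CPM in S28 and 51.7 CPM in S40 and at 7.76 to 16.2 CPM in the other 6; its part in the Cebpa values was not tested. Pck1, which hepatocytes also express, made up most of that list's sum of 1125 to 4694 CPM.

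None of the 9 factors passed the test between genotypes. By edgeR's quasi-likelihood test over all 15234 genes, 0 of 9 passed an FDR of 0.05, with adjusted p from 0.742 to 0.989, and 1 of 9 (Nr5a2, lower in Ripk1-hepKO) had an unadjusted p under 0.05. Across all genes tested, 0% passed the FDR and 6.68% had an unadjusted p under 0.05, made up of 3.86% with the knockouts higher and 2.82% with them lower. The DESeq2 Wald test, which called 36 genes in all, called 0 of the 9 as well, and limma voom with sample quality weights called 0, with 2 unadjusted p values under 0.05. The groups overlapped for all 9 factors, while 4.1% of all genes had groups that did not, 2.01% with the knockouts higher and 2.09% with them lower. Of the 9 log2 fold changes 7 lay below 0, with a median of -0.08, against 48.2% of all genes below 0 and a median of 0.01. With library size alone as the scaling, 6 of 9 lay below 0. The median rested on single mice: it was -0.0055 without S39 and -0.018 without S32, but -0.21 without S34, -0.18 without S40, -0.16 without S28 and -0.14 without S29. Each value rested on 238 to 75201 counts per library.

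**Figure D1:**
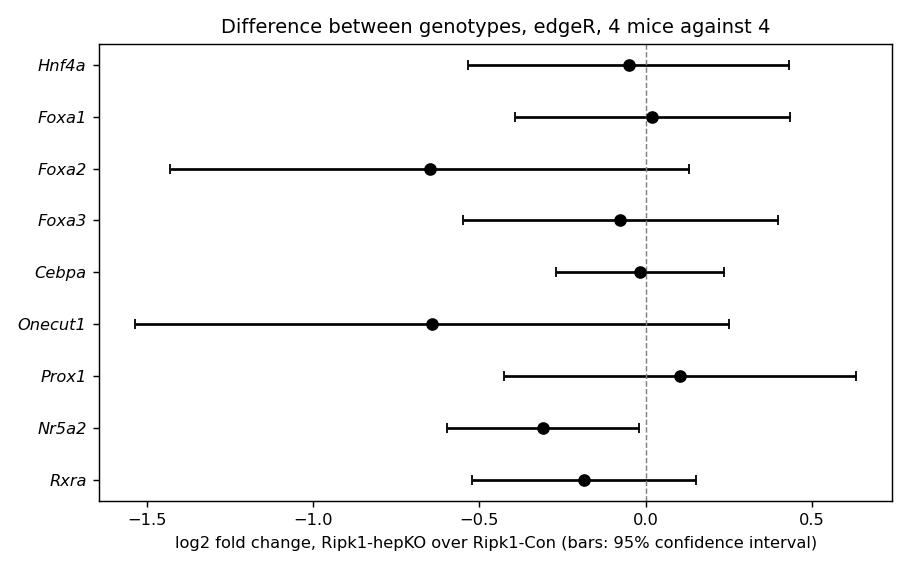
Log2 fold change of each factor, Ripk1-hepKO over Ripk1-Con, with its 95% confidence interval from the edgeR fit (4 mice per group). The interval of Nr5a2 alone stays below 0 before adjustment; Foxa2 and Onecut1 lie lowest and have the widest intervals, and Cebpa has the narrowest.

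Hnf4a (ENSMUSG00000017950, GRCm38 chromosome 2, 163506808 to 163572910, plus strand) had the highest level of the 9. It stood at 814, 926, 934 and 615 CPM in the knockouts S28, S34, S37 and S39, and at 688, 1216, 704 and 798 CPM in the controls S29, S32, S40 and S41. S32 was the highest and S39 the lowest of the 8, and the 3 other controls lay inside the range of the knockouts. The group means, knockout first, were 822 ± 149 and 851 ± 248 CPM (SD over 4 mice each), which is a log2 ratio of -0.05 (SE 0.21; adjusted p = 0.974 by edgeR). The 95% confidence interval spanned 69.1% to 135% of control. Without S32 the log2 fold change was 0.17 and without S39 it was 0.07. In these bulk samples, fewer hepatocytes and less RNA per hepatocyte cannot be told apart. The antisense transcript Hnf4aos, which overlaps the gene's span but shares no exon base with it, had 25 to 185 counts per library and stood at 2.67 ± 1.13 against 2.25 ± 1.19 CPM.

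Among the FOXA genes, Foxa2 had the largest difference in means and Foxa1 almost none. Foxa2 (ENSMUSG00000037025, chromosome 2, 148042877 to 148046969, minus strand), a pioneer factor also known for its control by insulin, stood at 8.49, 13.3, 21.5 and 10.7 CPM in S28, S34, S37 and S39 and at 25.2, 27.4, 10.6 and 21.2 CPM in S29, S32, S40 and S41. Of the 4 knockouts, 3 lay below 14 CPM and 3 of the 4 controls above 21 CPM. S37 and S40 were the exceptions. S34, S37 and S39 all lay inside the range of the controls, and S40 and S41 inside that of the knockouts. The means of 13.5 ± 5.68 and 21.1 ± 7.45 CPM (SD over 4 mice) gave a log2 ratio of -0.65 (SE 0.35; adjusted p = 0.769 by edgeR), with an interval from 37.1% to 110% of control. Equal levels lie within that interval. The long non-coding RNA 9030622O22Rik, which begins 2674 bases downstream of Foxa2 on the same strand, stood between 1.96 and 7.04 CPM over the 8 mice (log2 ratio of knockout to control -0.59, SE 0.35; adjusted p = 0.776 by edgeR).

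Foxa3 (ENSMUSG00000040891, chromosome 7, 19013284 to 19023538, minus strand), the form that predominates in adult liver, stood at 65.9, 86.3, 47.2 and 54.6 CPM in the knockouts S28, S34, S37 and S39 and at 63.1, 84.9, 50.9 and 68.7 CPM in the controls S29, S32, S40 and S41. Each group had 1 mouse near 85 CPM and the ranges nearly coincided. Foxa1 (ENSMUSG00000035451, chromosome 12, 57540628 to 57546916, minus strand) stood at 13.6, 12.1, 10.2 and 11.0 CPM against 12.2, 12.3, 7.90 and 13.9 CPM in the same order. Only S40 lay below 10 CPM. The log2 fold changes were -0.08 ± 0.21 for Foxa3 and 0.02 ± 0.18 for Foxa1 (SE; edgeR adjusted p = 0.955 and 0.989), with intervals from 68.4% to 132% and from 76.2% to 135% of control.

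Cebpa (ENSMUSG00000034957, chromosome 7, 35119293 to 35121928, plus strand) had the smallest spread of the 9. Its values were 130, 113, 140 and 125 CPM in S28, S34, S37 and S39 and 147, 128, 123 and 116 CPM in S29, S32, S40 and S41. Its coefficient of variation over the 8 mice was 8.91%, against 15.4% to 55.5% for the other 8 factors. The means of 127 ± 11.1 and 128 ± 13.3 CPM (SD over 4 mice) gave a log2 ratio of -0.02 (SE 0.11; adjusted p = 0.986 by edgeR), and the interval from 83.0% to 118% of control was the narrowest among the 9. With library size alone the log2 fold change was 0.02. An antisense transcript, Gm45091, shares 51 exon bases with Cebpa and had 2 to 13 counts per library.

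Onecut1 (ENSMUSG00000043013, chromosome 9, 74861921 to 74891781, plus strand), which acts in liver and bile duct development, had the largest coefficient of variation of the 9, 55.5% over the 8 mice. It stood at 16.4, 16.9, 24.2 and 10.3 CPM in knockouts S28, S34, S37 and S39 and at 24.3, 49.2, 16.8 and 15.2 CPM in controls S29, S32, S40 and S41. S32 stood far above the next mouse, S29, which lay just above the highest knockout, and S40 and S41 lay within the range of the knockouts. The means were 16.9 ± 5.66 and 26.4 ± 15.7 CPM (SD over 4 mice), or a log2 ratio of -0.64 (SE 0.39; adjusted p = 0.779 by edgeR). Without S32 the log2 fold change was -0.15. The lincRNA Gm20649 shares 2171 exon bases with Onecut1 on the same strand and was listed at 0 to 17 counts, so reads of these exons could belong to either.

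Prox1 (ENSMUSG00000010175, chromosome 1, 190118035 to 190170714, minus strand), which can repress NR5A2 and HNF4A activity, stood at 238, 164, 113 and 117 CPM in S28, S34, S37 and S39 and at 141, 174, 124 and 150 CPM in S29, S32, S40 and S41. The knockouts held the highest value and the 2 lowest, and their coefficients of variation were 36.7% among knockouts and 14.0% among controls, a difference that was not tested. The log2 ratio was 0.10 (SE 0.24; adjusted p = 0.942 by edgeR) and -0.16 without S28. Prox1 also marks lymphatic endothelium, whose markers Pdpn, Ccl21a and Mmrn1 each stayed at or below 0.695 CPM. The list of 6 summed to 80.0 to 96.8 CPM in the knockouts and 63.8 to 97.3 CPM in the controls, mostly from Reln, Lyve1 and Flt4, which other liver cells express too; its part in the Prox1 values was not tested.

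Nr5a2 (ENSMUSG00000026398, chromosome 1, 136842571 to 136960448, minus strand) came nearest to a separation of the genotypes. It stood at 50.7, 39.2, 45.1 and 40.8 CPM in the knockouts S28, S34, S37 and S39. In the controls S29, S32 and S41 it lay between 57.8 and 58.3 CPM, above every knockout, while control S40 lay at 44.0 CPM, inside the knockout range. The means were 44.0 ± 5.17 and 54.5 ± 6.96 CPM (SD over 4 mice), or a log2 ratio of -0.31 (SE 0.13; by edgeR, unadjusted p = 0.0384 and adjusted p = 0.742). Its rank by p was 772 of 15234 genes. The unadjusted interval ran from 66.1% to 98.6% of control, and over all alternatives the adjusted p lay between 0.328 and 0.959. S40 was also the shallowest library and had the lowest sum of Kupffer cell and macrophage markers (112 CPM, against at least 248.8 in the other 7); whether either bears on its Nr5a2 level was not tested. Leaving out 1 mouse gave log2 fold changes from -0.39 (without S40) to -0.25 (without S34). In those fits the unadjusted edgeR p was under 0.05 only without S28 or without S40. S28 was the highest knockout and S40 the lowest control. Without both S28 and S40 the log2 fold change was -0.47, the lowest of all alternatives.

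Rxra (ENSMUSG00000015846, chromosome 2, 27676440 to 27762957, plus strand) stood at 341, 340, 330 and 257 CPM in S28, S34, S37 and S39 and at 362, 441, 305 and 333 CPM in S29, S32, S40 and S41. S29 and S32 lay above every knockout, and S39 below every other mouse. The log2 ratio was -0.19 (SE 0.15; adjusted p = 0.819 by edgeR), with an interval from 69.6% to 111% of control, and it was -0.07 without S32 and -0.09 without S39.

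**Figure D2:**
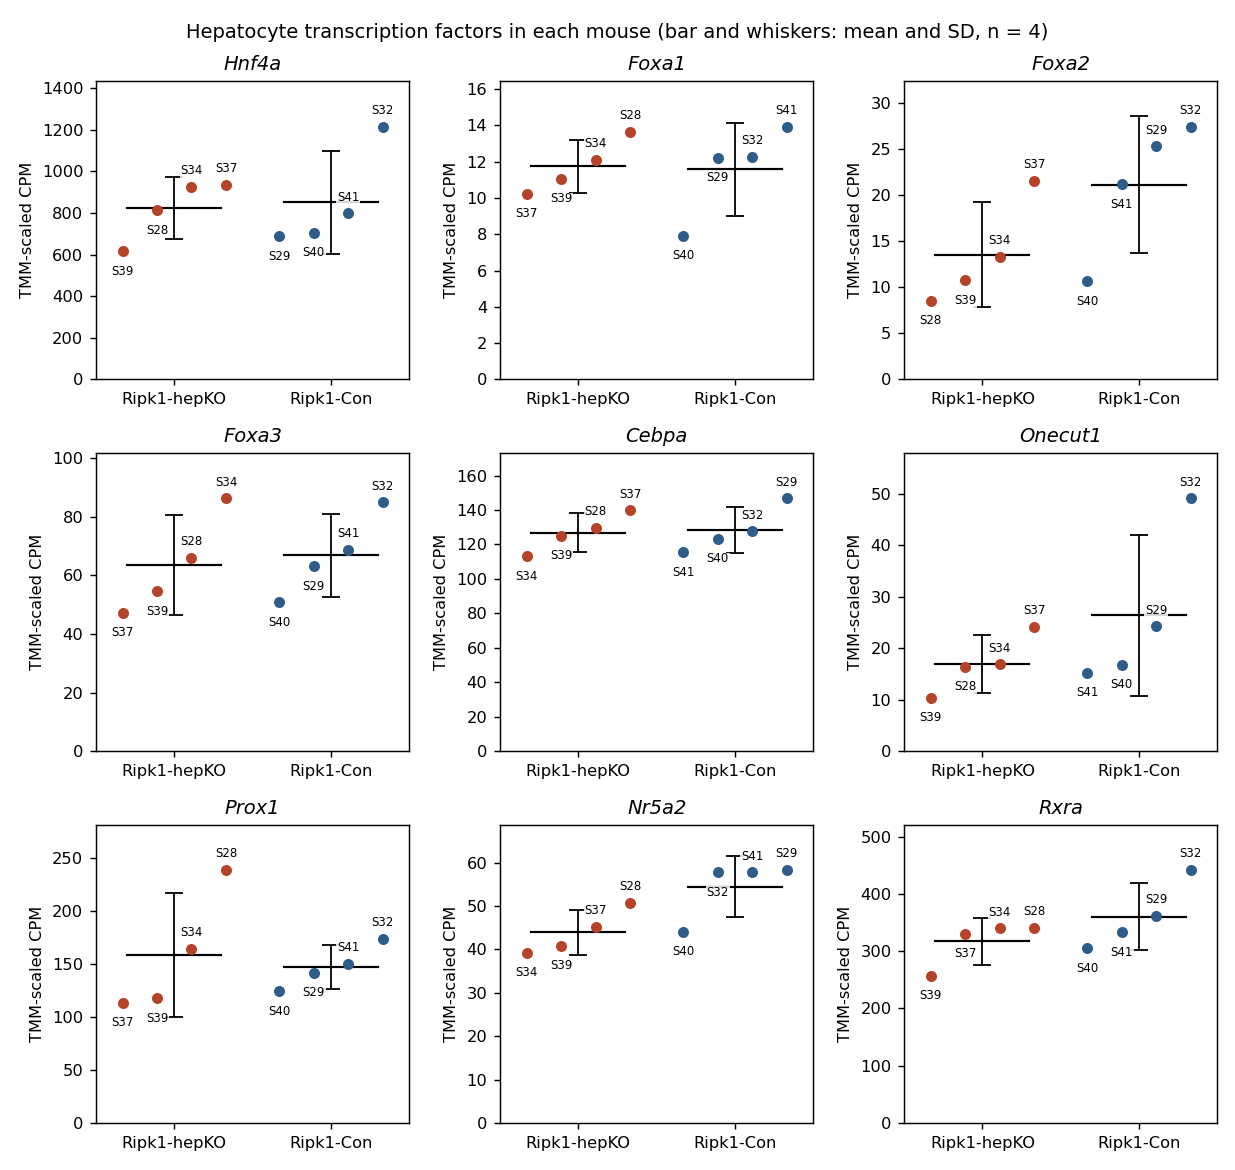
TMM-scaled CPM of each factor in each mouse, by genotype, with linear axes from 0. Points are mice, bars the mean and whiskers the SD (n = 4). The groups overlap in every panel; S32 is highest for Hnf4a, Foxa2, Onecut1 and Rxra.

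Per kilobase of merged exon length, the 9 factors spanned from 173 down to 3.51 CPM per kb. Hnf4a led at 173 ± 39.3 CPM per kb (SD, n = 8), within the top 1.6% of 15221 genes ranked by level per length, and did not overlap with the next factor. Rxra (62.0 ± 9.55) and Cebpa (48.4 ± 4.32) followed with overlapping ranges, Rxra being the higher in 7 of 8 mice. Foxa3 came next, between 23.2 and 42.4 CPM per kb, and Prox1 at 18.2 ± 4.86; their ranges overlapped, yet Foxa3 was higher in 8 of 8 mice. The lower group held Nr5a2 (8.34 ± 1.35), Foxa2 (7.30 ± 3.11), Onecut1 (5.27 ± 2.92) and Foxa1 (3.51 ± 0.585). Its neighbours were not set apart by their spread, as Nr5a2 exceeded Foxa2 in 5 of 8 mice, Foxa2 exceeded Onecut1 in 6 and Onecut1 exceeded Foxa1 in 5. Within the FOXA family, Foxa3 was the most abundant form per length and Foxa1 the least. Set beside 29 further factors of the hepatocyte, Hnf4a stood second of 38, after Atf5 at 216 ± 68.0 CPM per kb, and Foxa1 stood at place 31. The lengths come from all annotated exons, so a gene with long unused exons is understated. Onecut1 shares 2171 of its 4113 exon bases with Gm20649 on the same strand. How reads of shared exons were counted is not given, so the level and place of Onecut1 are uncertain.

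**Figure D3:**
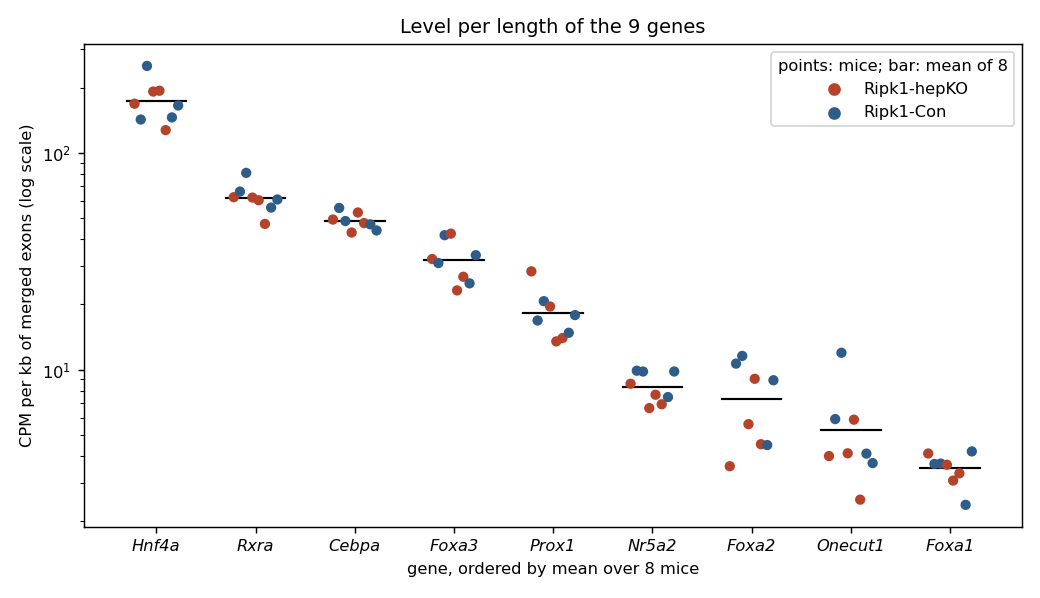
Level of each factor per kb of merged exons on a log axis, with 1 point per mouse coloured by genotype and the mean of 8 as a bar. Hnf4a at 173 CPM per kb lies apart from the rest, and at the low end Nr5a2, Foxa2, Onecut1 and Foxa1 each overlap with the next in order.

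Between mice, most of the factors leaned the same way without a pair passing the test. Over the 36 pairs of factors, Pearson r of log2(CPM + 1) across the 8 mice was above 0 for 31, with a median of 0.37. Of these, 4 pairs had an exact permutation p under 0.05 and 0 passed after Benjamini-Hochberg adjustment over 36 pairs (lowest adjusted p = 0.258 for r and 0.412 for Spearman's rho). All factors share the scaling of their library, and with library size alone in place of TMM 22 pairs were above 0, the median r was 0.10 and 1 pair, Onecut1 and Rxra, passed (r = 0.94, exact permutation adjusted p = 0.0268). S32, the deepest library, was above the median of the 8 mice for 9 of 9 factors, while S40, the shallowest, and S39 were above it for 0. The part of depth in this pattern was not tested.

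The highest r joined Onecut1 and Rxra (r = 0.91, exact permutation p = 0.00801, adjusted p = 0.258; rho = 0.69, exact permutation p = 0.0694, adjusted p = 0.460; n = 8). Hnf4a followed both, at r = 0.81 with Rxra and r = 0.79 with Onecut1 (exact permutation p = 0.0204 and 0.0240, adjusted p = 0.258 each; rho = 0.48 and 0.57, exact permutation p = 0.243 and 0.151, adjusted p = 0.547 and 0.495). These relations rested on the highest and the lowest mouse: without S32 and S39, r was 0.42, 0.01 and -0.02 for the 3 pairs. The pair of Foxa2 and Onecut1 had r = 0.72 (exact permutation p = 0.0286, adjusted p = 0.258) and rho = 0.74 (exact permutation p = 0.0458, adjusted p = 0.412), and r stayed at 0.72 without S28 and S32. As deviations from the group means, r was 0.89 for Onecut1 and Rxra, 0.88 for Hnf4a and Rxra, 0.85 for Hnf4a and Onecut1 and 0.64 for Foxa2 and Onecut1. For Cebpa, r lay between -0.45 (Foxa3) and 0.38 (Onecut1).

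**Figure D4:**
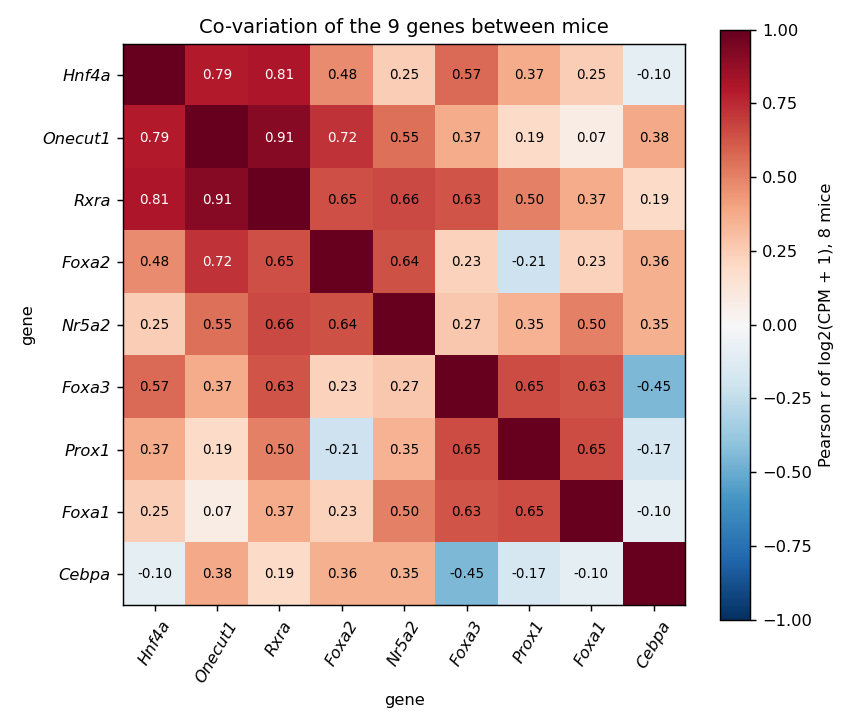
Pearson r between the 9 factors across 8 mice, from log2(CPM + 1), as a colour scale from -1 to 1 with the value in each cell. Hnf4a, Onecut1 and Rxra form the block of highest values (0.79 to 0.91), and 4 of the 5 values below 0 involve Cebpa.

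The search covered 7214 other genes with a mean of at least 10 CPM and an established symbol, leaving out Gm, Rik and clone names. Those most like each factor over the 8 mice were picked by the highest r, which a search of this size makes high by selection. They are given as a description. Gc, the vitamin D binding protein made by hepatocytes, was nearest to Hnf4a (r = 0.97). Habp2, a protease secreted by hepatocytes, was nearest to Onecut1 (r = 0.95). For Nr5a2 they were Cmtm6 and Acadl, the latter an enzyme of fatty acid oxidation (r = 0.97 each), and for Foxa2 Rnf169 came first (r = 0.99). Prkcd and Ost4 came first for Foxa1 (0.97 and 0.96), Appbp2 and Eed for Foxa3 (0.98 and 0.96), Pi4k2a and Midn for Prox1 (0.98 each), and mt-Te and Ddi2 for Rxra (0.98 and 0.97). Cebpa had the loosest match, with Fkbp2 at 0.93 and Rnf167 at 0.92. The second genes for Hnf4a and Onecut1 were Gigyf2 (0.96) and Sdf4 (0.94).

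Known targets of the factors were then counted, as fixed lists, beside all genes tested (48.2% below 0, median log2 fold change 0.01). In no list did a gene pass the FDR. Of 30 HNF4A targets, 19 lay below 0 and 11 above, with a median of -0.05 that ran from -0.11 without S37 to -0.0067 without S32. Apoa1, the main protein of HDL, stood at 5114 ± 463 CPM in Ripk1-hepKO against 6273 ± 513 in Ripk1-Con (edgeR adjusted p = 0.742). Of 15 FOXA targets 9 lay below 0, with a median of -0.06. Alb, encoding albumin, stood at 48465, 68917, 63058 and 65248 CPM in S28, S34, S37 and S39 and at 79522, 85673, 74428 and 90592 CPM in S29, S32, S40 and S41. All 4 knockouts lay below all 4 controls for Alb, and for Ttr, the thyroid hormone carrier (2578 ± 152 against 2997 ± 198 CPM; edgeR adjusted p = 0.742 for Alb and 0.769 for Ttr); among all genes, 2.09% had knockouts wholly below controls. The 14 hepatocyte markers, which include both genes, summed to 120879 to 145720 CPM in the knockouts and 132218 to 170577 CPM in the controls. Alb was the largest part of the sum in every mouse, so the sums do not stand apart from the Alb values. The other markers did not all go the same way: mean Apoa1 was lower in the knockouts and mean Trf higher. The 10 stellate cell markers summed to 566, 492, 512 and 491 CPM in S28, S34, S37 and S39. In S29, S32, S40 and S41 they summed to 450, 434, 420 and 487 CPM. Every knockout sum lay above every control sum, S39 and S41 being nearly equal. Among all genes, 2.01% had knockouts wholly above controls. Dcn, the largest of the 10, overlapped between the groups (186 CPM in S34, 188 CPM in S41). The sums for liver endothelium, macrophages, neutrophils and cholangiocytes overlapped as well. The part of the stellate cell markers in the Alb and Ttr values was not tested.

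Of 18 C/EBP-alpha targets, 13 lay below 0, with a median of -0.06, and Alb and Hamp had the smallest p values. Hamp, the iron hormone hepcidin, stood at 1207 CPM in S28, 43.7 to 190 CPM in the other knockouts and 3.09 to 52.2 CPM in the controls. NR5A2 targets were split, 7 above and 6 below 0 of 13 with a median of 0.02 that had no stable sign (-0.15 without S37, -0.11 without S39, -0.074 without S32 and -0.044 without S28, against 0.079 without S34). The smallest p values were those of Apoa1 and Abcb11, the bile salt export pump (296 ± 75.5 against 389 ± 34.2 CPM; edgeR adjusted p = 0.748). Cyp7a1 and Cyp8b1, bile acid synthesis enzymes that NR5A2 activates, stood at 94.0 ± 68.4 against 73.5 ± 82.9 and at 119 ± 68.7 against 117 ± 43.8 CPM; both were named after their values were seen. Of 10 ONECUT1 targets, 7 lay below 0, with a median of -0.04 that was 0.040 without S32 and -0.14 without S29, and Ttr and Foxa2 had the smallest p values. The target lists share genes such as Ttr, Alb and Pck1 and are not independent of each other.

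Partners and fellow factors were counted in the same way. Of 29 other transcription factors of the hepatocyte, 21 lay below 0, with a median of -0.21. An unadjusted edgeR p under 0.05 was found for 5 of them, all lower in Ripk1-hepKO. Among all genes, 2.82% had such a p in that direction. The lists were chosen with earlier results of these data known, so setting their counts beside all genes is a description and not a test. Ppara, the fatty acid receptor that pairs with RXRA, stood at 34.9, 45.7, 102 and 62.0 CPM in S28, S34, S37 and S39 and at 139, 129, 77.1 and 135 CPM in S29, S32, S40 and S41. Knockout S37 lay above control S40, and the remaining mice were apart (log2 ratio -0.97, SE 0.33; adjusted p = 0.742 by edgeR). Of 17 tested receptors that pair with RXR, 10 lay above 0, with a median of 0.12. Of these receptors, 3 were higher and 2 lower in Ripk1-hepKO at an unadjusted edgeR p under 0.05. The shares of all genes were 3.86% and 2.82%. Ppara, Nr1h4, Nr1i2 and Nr1i3 belong to both lists. The smallest p values were those of Ppard, the fatty acid receptor PPAR-delta (log2 ratio 0.54, SE 0.17, adjusted p = 0.742 by edgeR), and Ppara. Vdr was not tested for lack of counts. Of 17 coregulators, 11 lay below 0, with a median of -0.16. Tle1, a corepressor, stood at 24.2 ± 3.54 against 30.9 ± 3.14 CPM and Nr0b2 (SHP), the repressor of HNF4A and NR5A2, at 6.25 ± 4.32 against 15.5 ± 8.84 CPM (edgeR adjusted p = 0.742 and 0.750).

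Fetal and progenitor genes, which fully mature hepatocytes keep low, had 11 of 17 members that passed the count filter. Of these, 10 lay above 0, with a median of 0.40 that was 0.18 without S28 and 0.02 with limma voom and sample quality weights. Many were near the floor: Afp, H19, Gpc3, Epcam, Krt19 and Krt7 had group means of at most 0.948 CPM. The SEs of their log2 fold changes ran from 0.40 to 0.71. Prom1, a progenitor and bile duct surface protein, stood at 46.3 CPM in S28 and 9.34 to 10.7 in the other knockouts, against at most 9.26 CPM in the controls. Sox9 stood at 5.74 CPM in S28 and 1.61 to 2.06 in the other knockouts, against 1.16 to 2.11 CPM (edgeR adjusted p = 0.742 and 0.769). Afp, the fetal albumin homologue, stood at 0.663 ± 0.518 against 0.779 ± 0.331 CPM and was named after its values were seen. The tested genes Sox9, Epcam, Spp1, Krt19 and Krt7 belong to the list of bile duct markers as well. The 10 cholangiocyte markers summed to 116, 81.9, 89.0 and 68.9 CPM in S28, S34, S37 and S39 and to 70.0 to 93.1 CPM in the controls, and their part in the list's median was not tested.

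**Figure D5:**
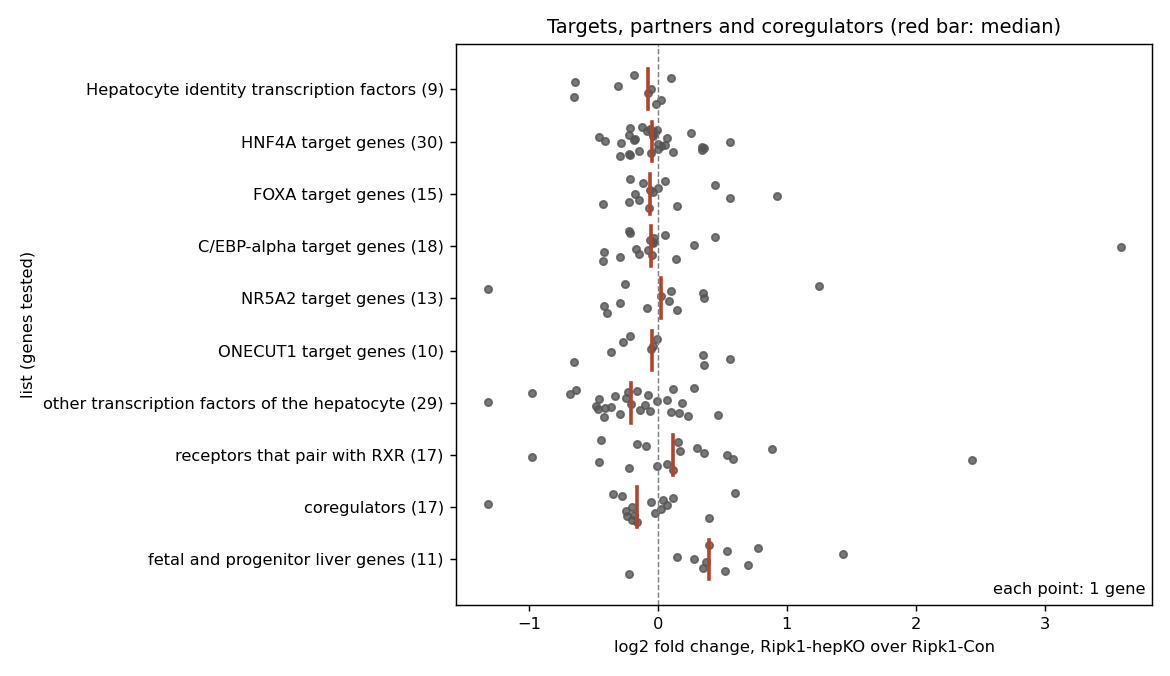
Log2 fold change of each gene in the fixed lists, Ripk1-hepKO over Ripk1-Con, with 1 point per gene tested and the median as a red bar. The medians of the target lists lie between -0.06 and 0.02, that of other hepatocyte factors at -0.21 and that of fetal and progenitor genes at 0.40.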

How the data were processed

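The authors deposited 1 table of raw counts per Ensembl gene for 8 libraries of polyadenylated, dUTP strand-marked liver RNA read at 150 bp from both ends, per the labels' protocols. Per the submitters' processing notes, which state no roles, the build was GRCm38.p6 and the tools included STAR 2.5.2b and StringTie 2.2.1 beside FastQC 0.11.5 and DESeq2 1.38.1. Which tool counted, with what strand setting and annotation release, is not given in the sources used here, so antisense and overlapping genes are uncertain. Symbols, positions and exon lengths came from GENCODE M21 (55154 of 55335 IDs matched), and start windows from RefSeq on GRCm38.p6.

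Counts were filtered with filterByExpr, scaled by TMM and tested with edgeR 4.0.16 (R 4.3.3), a robust quasi-likelihood fit of genotype, calling genes at an FDR of 0.05 (Benjamini-Hochberg, over all 15234 genes). Nothing in the labels pairs the mice. No pair of libraries was alike within sampling noise (lowest chi-square per degree of freedom 37.1 over 28 pairs). On simulated counts for this comparison (15234 genes, 50 changed at each fold) the test called 10% of genes changed 1.5-fold, 60% at 2-fold and 94% at 4-fold. It also called 7 of 15034 unchanged genes. The simulated libraries were drawn independently for each gene, with none set apart as S28 was, so these shares hold for that setting only. Correlations used exact permutation over all orders of the 8 mice. Alternatives were DESeq2 1.42.0, limma 3.58.1 voom with sample quality weights, other scalings, filters and pseudocounts, and mice left out. Named genes were the 9 factors, the 2 genes of smallest p in each list, the 2 most like each factor, transcripts that overlap a factor and Ripk1; transcripts within 5 kb, Atf5, Cyp7a1, Cyp8b1 and Afp were added outside this rule. Some genes the rule names are not reported here. The members and lists were chosen with earlier results of these data known. The labels name no molecular identifiers, so counts are not numbers of independent molecules. The 11 promoter motifs were chosen by hand from known binding sites, and the printed windows were chosen after their matches were seen.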

Additional observations from a re-analysis of the deposited data

Results flagged for a closer look

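In 7 of 44 groups of 4 mice examined, 1 value stood apart from the other 3 by a gap that took up most of the group's range, past Dixon's 95% critical value. That value marks about 1 in 20 groups of independent normal values. The groups here shared the same mice and included genes picked for small p, so 7 of 44 cannot be set against that rate. Of these, 2 concerned the factors themselves. Nr5a2 stood at 44.0 CPM in Ripk1-Con S40, where the next control was at 57.8 CPM. Rxra stood at 257 CPM in Ripk1-hepKO S39, where the next knockout was at 330 CPM. The remaining 5 belonged to genes of the fixed lists. Ppara stood at 77.1 CPM in Ripk1-Con S40, the next being at 129 CPM. Nr0b2 stood at 12.7 CPM in Ripk1-hepKO S37, the next being at 4.24 CPM. In Ripk1-hepKO S28, Hamp stood at 1207 CPM (next 190), Prom1 at 46.3 CPM (next 10.7) and Sox9 at 5.74 CPM (next 2.06).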

How the results depend on the processing

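For each factor 16 alternatives were run. Foxa2, Onecut1, Nr5a2 and Rxra kept a log2 fold change below 0 in all 16, from -0.96 to -0.48, -0.86 to -0.15, -0.47 to -0.25 and -0.29 to -0.07, and no factor passed the FDR in any. Of 144 values for the 9 factors, 15 changed sign. With limma voom, Hnf4a was at 0.016, Foxa1 at -0.10, Prox1 at -0.082 and the antisense Prox1os at 0.070; with library size alone Cebpa was at 0.019. Leaving out 1 mouse gave -0.14 to 0.17 for Hnf4a (above 0 without S32 or S39), -0.11 to 0.12 for Foxa1 (below 0 without S28 or S40), -0.25 to 0.061 for Foxa3 (above 0 without S32 or S37), -0.063 to 0.055 for Cebpa (above 0 without S29 or S34) and -0.16 to 0.24 for Prox1 (below 0 without S28). The same gave -0.32 to 0.019 for Ripk1 (above 0 without S32), -0.044 to 0.56 for Hnf4aos (below 0 without S29) and -0.33 to 0.041 for Prox1os (above 0 without S40). Without S28 and S40, Foxa1 was at -0.20, Prox1 at -0.24 and Prox1os at 0.029. The cause was not tested. Nr5a2 had an unadjusted p under 0.05 in 10 of 16 alternatives, all of which used every mouse or left out S28, S40 or both. Leaving out 1 of the mice S34, S37, S39, S29, S32 or S41 gave 0.060 to 0.106 by edgeR. For Foxa2 the unadjusted p was under 0.05 in 4 alternatives (lowest 0.0155, by edgeR without S37).

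Over all genes the DESeq2 Wald test called 36, none of them a factor, and every other setting called 0. With library size alone, 1 pair of factors passed, Onecut1 and Rxra (r = 0.94, exact permutation p = 7.44e-04, adjusted p = 0.0268), where DESeq2 size factors and a pseudocount of 0.25 gave 0; with mice left out, r was computed without this test. The median of the fetal and progenitor list was 0.02 with limma voom and 0.14 without S28 and S40. That of the C/EBP-alpha targets was -0.17 without S28 and S40, and that of receptors pairing with RXR ran from 0.04 to 0.18 over all alternatives. Further medians that 1 mouse moved were C/EBP-alpha targets (-0.12 without S40), FOXA targets (-0.037 without S28), coregulators (-0.069 without S32) and other hepatocyte factors (-0.11 without S29). With limma voom that of NR5A2 targets was -0.016. No paired analysis was possible because the labels give nothing that pairs the mice. In the simulation, which set no library apart, 4 mice per group missed most changes of 1.5-fold.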

Other observations

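The same 4 mice were the lowest for 3 genes of the network. The 4 lowest mice for Foxa2 were S28, S40, S39 and S34, at 8.49 to 13.3 CPM, while the other 4 lay between 21.2 and 27.4 CPM. The same 4 mice, 3 Ripk1-hepKO and 1 Ripk1-Con, were the lowest for Nr0b2, at 3.32 to 4.24 CPM against 12.7 to 22.8 CPM in S37, S29, S32 and S41. They were also the lowest for Ppara, at 34.9 to 77.1 CPM against 102 to 139 CPM. The 3 genes were set side by side after their values had been seen, and no test was made of the pattern.

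Ripk1 had the same highest and lowest mouse as 3 of the factors, being highest in S32 (53.6 CPM) and lowest in S39 (23.1 CPM), as were Hnf4a (1216 and 615 CPM), Onecut1 (49.2 and 10.3 CPM) and Rxra (441 and 257 CPM). This pattern was also noted after the values were seen and was not tested.

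For the transcripts beside the factors, 0 of 5 correlations passed the test. Over the 8 mice, r was 0.45 for Foxa2 with 9030622O22Rik, 0.41 for Onecut1 with Gm16551, 0.27 for Foxa3 with Sympk, 0.11 for Hnf4a with Hnf4aos and -0.12 for Prox1 with Prox1os (exact permutation p from 0.312 to 0.785, adjusted p from 0.782 to 0.785 over 5 pairs; rho from -0.21 to 0.48, adjusted p = 0.752 each). Leaving out the 2 mice farthest from the median of each factor, r was 0.00, 0.37, 0.13, 0.42 and -0.42.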
